A study of Mus musculus with 6 samples.

Results

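The slow-twitch sarcomere genes comprised 7 genes of the contractile apparatus of slow muscle fibres, namely Myh7, Tnni1, Tnnt1, Tpm3, Myl2, Myl3 and Tnnc1. Every probe that the platform annotation assigned to one of these symbols was taken, which gave 8 probes of 21020 named probes, because Myh7 had 2 probes and each other gene had 1. The genes were chosen with their differences between MCSE and PBS in view, so these differences are given as a description and without a test.

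All groups were ob/ob mice of the strain B6.V-Lepob/J, which lack functional leptin and become obese and insulin resistant. The mice were fasted for 4 h and were given either MCSE, a seed extract of bitter melon (Momordica charantia), or phosphate-buffered saline (PBS) by mouth. An intraperitoneal glucose load of 1 g/kg followed 15 min later in both groups, and muscle, adipose tissue and liver were taken 4 h after the glucose. Each combination of tissue and treatment was measured on 1 one-colour array, so the data comprised 6 arrays, and neither the muscle sampled, nor the age of the mice, nor any pooling of RNA was given in the labels. Values are log2 of the normalized intensities that the authors deposited, with low values raised to a floor of 7.74. The median of all probes was 8.95 on this scale, and a probe counted as measured in a pair of arrays when it reached that median on at least 1 of them.

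Striated muscle contracts when myosin heads on the thick filament pull on the actin thin filament, and tropomyosin and the 3 troponins make this pull depend on calcium. Slow fibres use their own genes for many of these parts and resist fatigue, whereas fast fibres use another set and contract more quickly. Several slow genes also serve the heart, where Myl2, Myl3 and Tnnc1 are the forms of the ventricle. Myh7 is the slow myosin of skeletal muscle and, in the mouse, mainly a gene of the fetal heart.

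The arrays did not all carry only the tissue of their label. This bears on the values below, most of all on those of the liver and adipose labels. Both muscle arrays carried the fast-fibre markers, with a summed intensity over the 10 markers of 560000 (PBS) and 522000 (MCSE) against 6070 to 18500 on the 4 other arrays. Markers of other cell types were present on the muscle arrays too. All 6 white adipocyte markers reached the median of all probes on both, with sums of 102000 (PBS) and 85900 (MCSE). The cardiomyocyte markers summed to 17600 (PBS) and 12500 (MCSE) there. The hepatocyte, white adipocyte and kidney markers were bright together on both liver arrays and on the MCSE adipose array. The MCSE adipose array was nearly the same as the MCSE liver array, with a Pearson correlation of 0.982 over all probes. The PBS adipose array stood apart, with correlations of 0.307 to 0.517 with the 5 other arrays and low values of adipocyte markers. In what follows "liver" and "adipose" therefore name the label of an array.

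All 7 genes lay higher on the MCSE muscle array, and the promoters of 4 of them are shown as examples. Myh7 and Tnnt1 lay higher by the wider margin and Myl3 and Tnnc1 by the narrower. Each run is the 250 bases before a transcription start in the RefSeq table of build GRCm38.p6, where all 7 genes were matched (11 promoter entries). Myh7 lies at chr14:54994627-54994876 on the minus strand (the first of its 2 entries), Tnnt1 at chr7:4515976-4516225 on the minus strand, Myl3 at chr9:110763428-110763677 on the plus strand and Tnnc1 at chr14:31208062-31208311 on the plus strand. Capitals mark letters that match the MCAT motif of TEAD factors (CATTCC), the TATA box (TATAAA), the core of the NFAT motif (TGGAAA) or the CArG motif of serum response factor, on either strand.
Myh7: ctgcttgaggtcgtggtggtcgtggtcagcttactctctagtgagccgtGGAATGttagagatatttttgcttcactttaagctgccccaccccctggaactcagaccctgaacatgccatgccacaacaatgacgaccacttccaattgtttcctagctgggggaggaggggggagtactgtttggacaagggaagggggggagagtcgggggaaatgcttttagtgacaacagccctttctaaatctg
Tnnt1: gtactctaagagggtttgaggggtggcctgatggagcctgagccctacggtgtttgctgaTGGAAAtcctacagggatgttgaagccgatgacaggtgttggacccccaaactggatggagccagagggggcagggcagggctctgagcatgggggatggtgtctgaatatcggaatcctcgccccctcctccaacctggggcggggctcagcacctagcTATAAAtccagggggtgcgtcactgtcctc
Myl3: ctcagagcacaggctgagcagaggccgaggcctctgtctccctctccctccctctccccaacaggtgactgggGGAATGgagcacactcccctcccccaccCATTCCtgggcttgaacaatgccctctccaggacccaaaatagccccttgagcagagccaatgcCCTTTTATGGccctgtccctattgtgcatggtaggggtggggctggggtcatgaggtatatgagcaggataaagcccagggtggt
Tnnc1: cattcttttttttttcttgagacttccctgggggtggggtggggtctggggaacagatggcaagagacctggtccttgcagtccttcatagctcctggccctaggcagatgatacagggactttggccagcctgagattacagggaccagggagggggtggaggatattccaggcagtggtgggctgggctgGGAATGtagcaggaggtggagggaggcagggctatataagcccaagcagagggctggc
The MCAT letters stood in the windows of Myh7 (first entry only), Myl3 and Tnnc1, all of which are shown, and in 12.6% of all 32841 promoters of that length. In Myl3 they occurred 177 and 149 bases before the start, with a CArG match 85 bases before it. The CArG letters were present in 1.47% of all promoters. The TATA letters lay 30 bases before the Tnnt1 start, and were otherwise found among these genes only in the second entry of Myl2, against 12.4% of all promoters. NFAT letters were found in Tnnt1 and Tpm3 and in 18.6% of all promoters, and the MEF2 motif in 0 of the 11 entries and 2.92% of all. The E-box (CANNTG), the site of MyoD and its relatives, occurred in all 11 entries but also in 66.2% of all promoters, and is not capitalised. The second Myh7 entry and both entries of Tnni1, which are not shown, held no match to any motif other than the E-box. All these matches describe letters in the windows and are no evidence of binding.

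In muscle, all 7 genes lay higher on the MCSE array than on the PBS array, and they fell into a wide and a narrow step. Myh7, Tnni1, Tnnt1 and Tpm3 differed by 2.62 to 3.84 on the log2 scale (6.16-fold to 14.3-fold), and Myl2, Myl3 and Tnnc1 by 0.62 to 1.21 (1.53-fold to 2.31-fold). The median over the 7 genes was 2.62, against -0.05 over all 10711 measured genes. In such bulk RNA a larger share of slow fibres and more of these transcripts per fibre cannot be told apart. The muscle sampled was not given, and a part of RNA from other tissues, such as heart, was not tested. With 1 array per group no error between mice could be had. As a gauge of technical error, the differences of 2 measured probes for one gene scattered on the muscle pair by 0.52 per probe (SD, 1504 genes). This gauge holds no variation between mice, and since the genes were chosen on these differences, their size against it is no support.

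**Figure D1:**
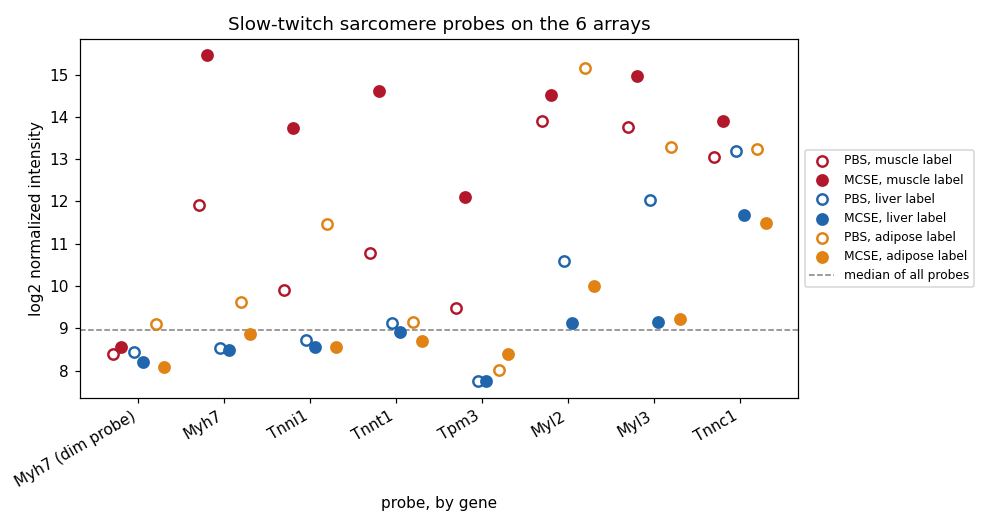
Log2 normalized intensity of the 8 probes (horizontal axis, by gene) on each of the 6 arrays, with open circles for PBS and filled circles for MCSE, coloured by tissue label, and a dashed line at the median of all probes (8.95). The MCSE muscle array is the highest of the 6 for Myh7, Tnni1, Tnnt1, Tpm3, Myl3 and Tnnc1, while Myl2 peaks on the PBS adipose array at 15.15.

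Myh7 encodes the slow myosin heavy chain, the motor of slow fibres. Its brighter probe lay at 11.92 (PBS) and 15.46 (MCSE) in muscle, at 8.54 and 8.48 on the PBS and MCSE liver arrays, and at 9.63 and 8.86 on the PBS and MCSE adipose arrays. The muscle arrays were the 2 highest, and the 2 liver arrays and the MCSE adipose array did not reach the median of all probes. The muscle difference was 3.54. The second Myh7 probe was dim, with 8.40 and 8.56 on the PBS and MCSE muscle arrays, 8.45 and 8.21 on the liver arrays and 9.09 and 8.09 on the adipose arrays. Only on the PBS adipose array did it pass the median of all probes. Neither muscle array brought it up to the median of all probes, and its muscle difference of 0.16 was within the gauge. The 3.54 of Myh7 thus rests on 1 probe, as does the value of each other gene, which had no second probe.

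Tnni1 and Tnnt1 encode slow troponin I, which blocks the actin-myosin interaction at rest, and slow troponin T, which anchors the troponin complex to tropomyosin. Tnni1 lay at 9.90 (PBS) and 13.74 (MCSE) in muscle, at 8.73 and 8.55 on the liver arrays and at 11.46 and 8.56 on the adipose arrays. It was thus second highest on the PBS adipose array, above the PBS muscle array. Tnnt1 lay at 10.77 and 14.61 in muscle, at 9.13 and 8.90 on the liver arrays and at 9.14 and 8.71 on the adipose arrays. Here the 4 arrays other than muscle all lay near the median of all probes, with gaps between them below the SD per probe. Both genes differed by 3.84 in muscle, and they ranked 9th and 10th from the top among 12497 measured named probes, with Myh7 at rank 11.

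Tpm3 encodes the slow form of tropomyosin in muscle and, through other promoters and exons, tropomyosins of the cytoskeleton of most cells. Its probe lay at 9.47 (PBS) and 12.09 (MCSE) in muscle, at 7.74 and 7.76 on the liver arrays and at 8.02 and 8.39 on the adipose arrays. None of the 4 arrays other than muscle reached the median of all probes. The sources used here do not say which Tpm3 transcripts the probe reads. The muscle difference was 2.62, at rank 28.

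Tnnc1 encodes the calcium-binding troponin C that slow fibres and the heart share. It lay at 13.06 (PBS) and 13.91 (MCSE) in muscle, at 13.18 and 11.69 on the liver arrays and at 13.24 and 11.49 on the adipose arrays. The PBS muscle, PBS liver and PBS adipose arrays were closer to each other than the SD per probe, and lay below the MCSE muscle array and above the other 2 MCSE arrays. It had the flattest profile of the brighter probes, with a range of 2.43 over the 6 arrays against 4.35 to 6.98 for the 6 other genes. The muscle difference was 0.85.

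Myl2, the regulatory light chain, and Myl3, the essential light chain, stabilise the lever arm of the myosin head in slow fibres and in the ventricle. Myl2 lay at 13.90 (PBS) and 14.52 (MCSE) in muscle, at 10.59 and 9.13 on the liver arrays and at 15.15 and 9.99 on the adipose arrays. Myl3 lay at 13.76 and 14.97 in muscle, at 12.03 and 9.14 on the liver arrays and at 13.28 and 9.21 on the adipose arrays. Both genes were bright on the PBS muscle array already, and for both the PBS arrays of the liver and adipose labels were higher than the MCSE arrays. The muscle differences were 0.62 for Myl2 and 1.21 for Myl3.

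Of the 8 probes, 7 were measured in muscle and 5 of these were at least 2-fold higher with MCSE (Myh7, Tnni1, Tnnt1, Tpm3 and Myl3), where 3.92% of all 12497 measured named probes were. None (0) were 2-fold lower, against 2.02% of all. The genes were chosen on this contrast, so the shares are set side by side and nothing is read from them.

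**Figure D2:**
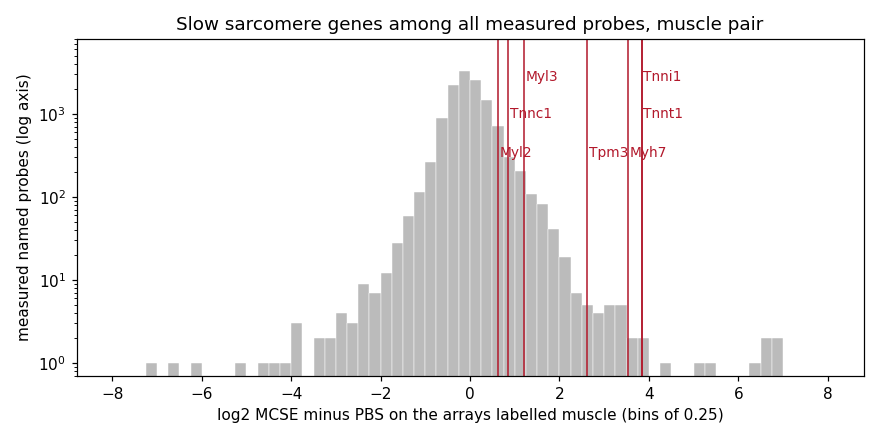
Histogram of the log2 difference MCSE minus PBS on the muscle pair over the 12497 measured named probes (horizontal axis, bins of 0.25; vertical axis, number of probes on a log scale), with red lines at the brighter probe of each slow sarcomere gene. Myl2, Tnnc1 and Myl3 lie on the right shoulder of the distribution, whereas Tpm3, Myh7, Tnnt1 and Tnni1 lie in its sparse right tail.

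The fast isoforms of the same proteins showed no such step. Of 9 fast counterparts, 8 were measured in muscle, and 0 passed 2-fold in either direction, the median being -0.03 and the range -0.69 to 0.29. Among the fast myosin heavy chains, Myh4 (type IIb) lay at 16.05 (PBS) and 15.48 (MCSE), Myh1 (type IIx) at 15.87 and 15.81, and Myh2 (type IIa) at 15.47 and 15.76. The fast troponins Tnnt3 and Tnnc2 differed by -0.69 and 0.07, the fast light chains Mylpf and Myl1 by 0.01 and 0.10, and Tpm1 by -0.46. Most of these probes lay near the top of the scale (16.41) on both arrays, which leaves little room for a higher reading. The probe for fast troponin I, Tnni2, was dim even in muscle (8.54 and 8.42) and was not measured. The Tpm1 probe was dimmer in muscle (10.25 on the PBS and 9.79 on the MCSE array) than on the liver arrays (11.21 and 11.39). Which Tpm1 transcripts it reads is not given in the sources used here.

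Other genes of slow or oxidative fibres were mixed. Of 15 measured genes, 12 lay above 0, 3 passed 2-fold upwards and 2 downwards, and the median was 0.46. The higher ones were Csrp3, a protein of the Z disc (1.84), Myoz2, a Z-disc partner of calcineurin in slow fibres and heart (1.47), and Atp2a2, the calcium pump of slow fibres and heart (1.04). The lower ones were Pln, the inhibitor of that pump (-1.40), and Fabp3, a fatty acid carrier of oxidative muscle and heart (-1.10). Casq2, the calsequestrin of slow fibres and heart, was at 0.41 and Mb, the oxygen store myoglobin, at 0.43. The list shares Tnnt2 with the cardiac forms described next.

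A wider list of sarcomere genes was centred on 0. Not all of it is common to slow and fast fibres, since it held the fast-fibre marker Actn3 (16.04 on the PBS and 16.01 on the MCSE muscle array). Of 19 measured genes, 10 lay above 0, 2 passed 2-fold upwards and 0 downwards, and the median was 0.01. The 2 were Xirp1, an actin-binding protein of intercalated discs and myotendinous junctions (2.36), and Lmod2, which sets thin filament length (1.58). These counts rest on the brightest probe of each gene. For Ttn that probe was at -0.135, but its other measured probes ran from -1.395 to 1.581. Of 14 measured regulators of fibre type, 2 were 2-fold higher, Rcan1, a calcineurin inhibitor that calcineurin itself induces (2.07), and Vgll2, a cofactor of TEAD factors (1.00), and 2 were lower, Mef2c, a transcription factor of muscle genes (-1.37), and Nfatc1, a target of calcineurin (-1.17). The Nfatc1 value is that of its brightest probe, and another measured Nfatc1 probe was at -0.05. The median of the list was 0.00. Ppargc1a, a coactivator of oxidative fibre genes, was at -0.65.

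Of the 6 cardiac forms in muscle, 1 was 2-fold lower with MCSE (Myh6), 1 was 2-fold higher (Myl7) and 2 lay above 0. Myh6, the alpha myosin heavy chain of the heart, was at -1.15, Tnnt2, cardiac troponin T, at -0.84, Tnni3, cardiac troponin I, at -0.63 and Actc1, cardiac actin, at -0.31. The atrial light chains Myl7 and Myl4 were at 1.79 and 0.56. The summed intensity of the 7 cardiomyocyte markers on the array (of 8 symbols) was 17600 on the PBS and 12500 on the MCSE muscle array, with no marker at the floor. Of 6 measured kidney markers, 2 were 2-fold higher on the MCSE muscle array, Kap (9.61 on the PBS and 12.81 on the MCSE array) and Slc34a1 (1.12 higher), while Aqp2 was at -0.01. Their summed intensity was 12700 against 4230, and most of that gap came from Kap. The part of cardiac or kidney RNA in the slow-gene differences was not tested. White adipocyte markers summed to 102000 (PBS) and 85900 (MCSE), and hepatocyte markers to 11800 and 8240.

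**Figure D3:**
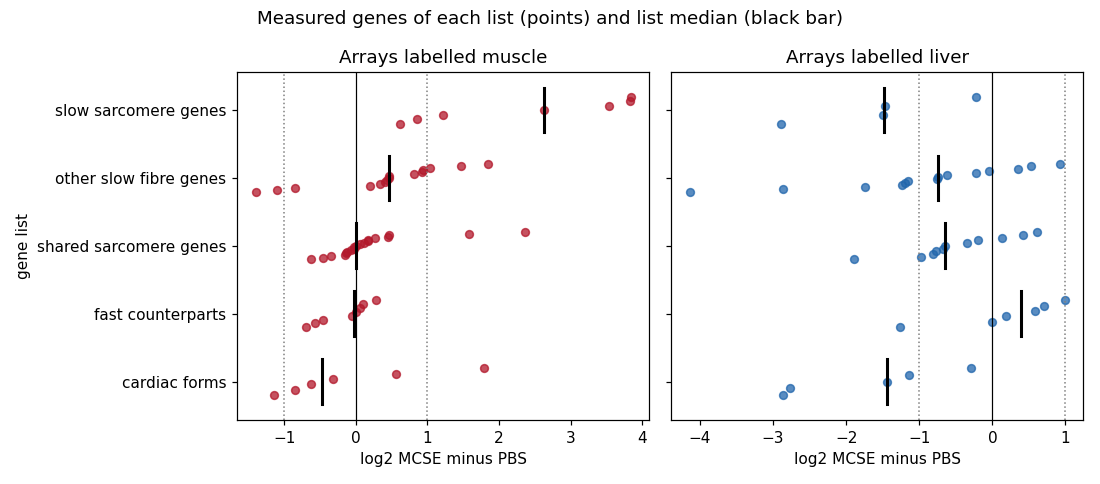
Log2 difference MCSE minus PBS (horizontal axis) of the measured genes of 5 lists (vertical axis), 1 point per gene by its brightest probe, on the muscle pair (left) and the liver-labelled pair (right); black bars are list medians and dotted lines mark 2-fold. In muscle every slow sarcomere gene (0.62 and above) lies to the right of every fast counterpart (0.29 and below), and on the liver labels the measured slow sarcomere genes and the cardiac forms both have medians below -1. The slow genes were chosen on both contrasts, and most fast probes lay near the top of the scale in muscle, so nothing is read from the separation.

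On the liver-labelled arrays the genes divided into the same 2 groups as in muscle. Myl2, Myl3 and Tnnc1, the 3 genes shared with the ventricle, were lower with MCSE by 1.47 to 2.89 on the log2 scale. Myh7, Tnni1, Tnnt1 and Tpm3 differed by -0.23 to 0.02 and lay near or under the overall probe median in both groups, a level at which lower values are hard to see. Myl3 was at -2.89, the fifth lowest of 13297 measured named probes, Tnnc1 at -1.50 and Myl2 at -1.47. The SD per probe on this pair was 0.61. Of 4 measured probes (Tnnt1, Myl2, Myl3 and Tnnc1), 3 were 2-fold lower, where 5.70% of all measured named probes were, and 0 were 2-fold higher, against 8.11% of all. These shares are again a description, since the choice of genes used this contrast.

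Cardiac genes were lower with MCSE on the liver labels as well. Of 5 measured cardiac forms, 4 passed 2-fold downwards and 0 upwards, and the median was -1.44. Tnnt2 lay at 10.91 (PBS) and 8.05 (MCSE), Tnni3 at 10.29 and 8.84, and Myh6 at 9.44 and 8.30. The 2 probes of Actc1 differed by -2.77 and -4.63. Mb was at -4.14. The summed intensity of the cardiomyocyte markers was 5820 on the PBS and 3020 on the MCSE liver array, with 4 and 1 of 7 markers at or above the median of all probes. Alas2, the heme synthesis enzyme of red cell precursors, lay at 11.89 and at the floor of 7.74 on the same arrays. The part of cardiac or red-cell RNA in the lower values of Myl2, Myl3 and Tnnc1 was not tested. Among the fast counterparts, 1 of 6 measured genes was 2-fold lower, Tnnc2 at -1.26, and 0 were higher.

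**Figure D4:**
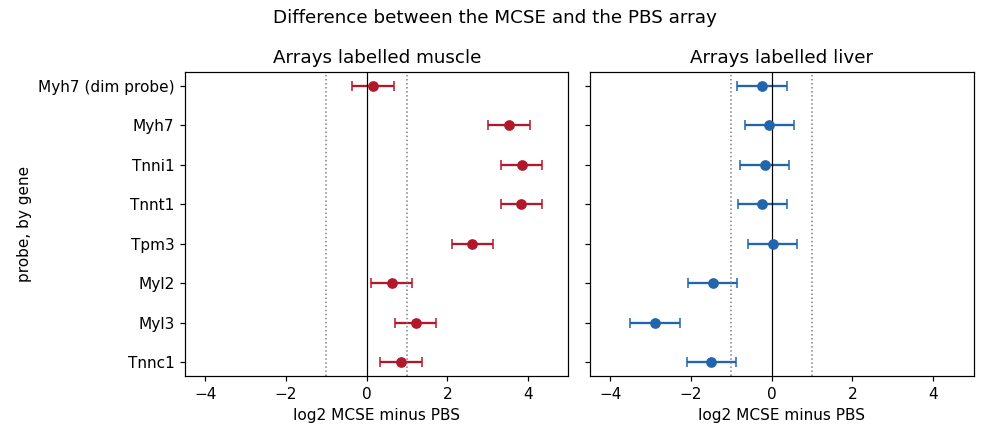
Log2 difference MCSE minus PBS (horizontal axis) for each of the 8 probes (vertical axis) on the muscle pair (left) and the liver-labelled pair (right); bars show the SD per probe of each pair (0.52 and 0.61), a gauge of technical error, and dotted lines mark 2-fold. Myh7, Tnni1, Tnnt1 and Tpm3 stand at 2.62 to 3.84 in muscle and near 0 on the liver labels, while Myl2, Myl3 and Tnnc1 lie above 0 in muscle and below -1 on the liver labels.

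The adipose-labelled pair was not used to choose the genes, but its 2 arrays differed wholesale, with 36.9% of 15591 measured named probes 2-fold higher with MCSE and 33.7% lower, and an SD per probe of 1.75. On it Myl2 was at -5.16, Myl3 at -4.07, Tnni1 at -2.90 and Tnnc1 at -1.76. Tnnt1 (-0.43) and Myh7 (-0.77 on its brighter and -1.01 on its second probe) stayed within that SD. Tpm3 was not measured on this pair. Of 5 measured cardiac forms, 4 were 2-fold lower on their brightest probes, with Actc1, Tnnt2, Tnni3 and Myh6 at -4.95, -4.32, -4.23 and -2.48. Myl4 was at -0.21. The cardiomyocyte markers summed to 17600 on the PBS adipose array, as on the PBS muscle array, and to 2630 on the MCSE adipose array. The 5 smooth muscle markers summed to 42000 on the PBS and 14200 on the MCSE adipose array. Of the fast myosins on the PBS adipose array, Myh4 lay at 9.20, Myh2 at 9.15 and the 2 probes of Myh1 at 8.03 and 11.49. The fast-fibre marker Pvalb lay at 13.34 on that array. With a trend with brightness removed, the difference of Tnnc1 on this pair was -0.19 and that of Myl2 -3.48.

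The fitted difference between tissues averages over MCSE and PBS, and its values were not used to choose the genes. They are muscle genes by definition, however, so the direction of this difference was largely set by the choice. The error of the fit was not independent of that choice either, because its only residual spread was the MCSE minus PBS difference within each label. The calls, SEs and adjusted p-values below therefore describe these arrays and are no independent support. The question was whether the slow genes were higher on the muscle arrays than on the liver-labelled arrays, with the PBS and MCSE arrays of a label as its 2 samples. With limma, 4 of 7 tested probes were called higher in muscle, by a factor of 2 or more with an adjusted p below 0.05, where 10.9% of all 12310 tested probes were higher and 16.4% lower. The filter on mean brightness let Myh7, Tnni1 and Tpm3 in only through the muscle arrays. Without this filter 1 of 8 probes (Myl2) was called. The adjusted p from limma was then 0.105 for Myh7, 0.141 for Myl3, 0.152 for Tpm3 and 0.241 for Tnni1. The log2 level of Myl2 was 4.35 ± 0.52 (SE) higher (adjusted p from limma 0.00366), and both muscle arrays lay above both liver arrays. Myh7 was 5.18 ± 1.04 higher (adjusted p from limma 0.0158), Myl3 3.79 ± 0.93 (0.0295) and Tpm3 3.03 ± 0.79 (0.0351). For these 3 genes both muscle arrays lay above both liver arrays.

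Tnnt1 (3.67 ± 1.12, adjusted p from limma 0.0547) and Tnni1 (3.18 ± 1.12, 0.0793) missed the threshold, although both muscle arrays lay above both liver arrays for each. Tnnc1 differed by 1.05 ± 0.56 (adjusted p from limma 0.195), and its groups overlapped, the PBS liver array (13.18) being above the PBS muscle array (13.06). The second Myh7 probe did not pass the filter on mean brightness. Of the 9 tested probes of fast counterparts, 8 were called higher in muscle, such as Myh2 at 7.26 ± 0.31 and Myh4 at 7.31 ± 0.36 (adjusted p from limma 0.000325 for both). The second Myh1 probe was the narrowest of these at 1.59 ± 0.36 (0.0231), and Tpm1 was called lower in muscle at -1.28 ± 0.30 (0.0263). The filter on mean brightness let some fast probes in only through the muscle arrays as well. Examples are Myh2 (8.60 and 8.11 on the PBS and MCSE liver arrays) and Myh4 (8.16 and 8.76). Among the cardiac forms, Myh6 (2.16 ± 0.53, adjusted p from limma 0.0295) and Tnni3 (2.31 ± 0.52, 0.0231) were called higher in muscle as well. Actc1, Tnnt2, Myl7 and Myl4 were not called, and Myl4 lay lower in muscle (-0.95).

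These calls depended on single arrays and on the spread used. Without the PBS liver array, Myh7 (adjusted p from limma 0.0621) and Tpm3 (0.106) were lost and Tnnc1 (0.0436) was gained, and without the MCSE liver array Myh7 (0.0603) and Tpm3 (0.102) were lost, leaving 2 of 7. Without the MCSE muscle array Tpm3 (0.0502) was lost and Tnnt1 (0.0469) gained, and without the PBS muscle array Tnnt1 (3.87e-05) and Tnni1 (6.51e-05) were gained. With treatment as a term, which links the arrays of a treatment across labels, Tnnt1 (adjusted p from limma 0.00938) and Tnni1 (0.0156) passed as well, giving 6 of 7. With all 6 arrays in one limma fit, where the adipose pair adds to the spread, 0 of 7 passed (lowest adjusted p 0.229; 5 at an unadjusted p under 0.05).

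Across the 6 arrays some of the genes followed each other closely. Myh7, Tnnt1 and Tpm3 correlated with each other at a Pearson r of 0.98 in each of the 3 pairs, Myl3 with Tnnc1 at 0.96 and with Myl2 at 0.90, and Myl2 with Tnnc1 at 0.80. Between the first 3 genes and the last 3 r ranged from 0.56 (Tpm3 and Myl2) to 0.79 (Myh7 and Myl3). Tnni1 stood at 0.82 to 0.87 with the first and 0.78 to 0.83 with the last. These are descriptions over 6 arrays that include the differences used to choose the genes. For Myh7, Tnnt1 and Tpm3 the 4 arrays other than muscle lay at or below 9.63, so r rests largely on the muscle arrays, above all the MCSE one. The MCSE liver and MCSE adipose arrays were nearly the same (0.982), so they are hardly separate points.

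The 10 genes whose profile was most like the mean of the 7 slow genes were taken from 6974 genes with a range of at least 2 over the 6 arrays. They had a Pearson r of 0.957 to 0.994 over the 6 arrays. They were E230019M04Rik, Pank2 (a pantothenate kinase of coenzyme A synthesis), Htr7 (a serotonin receptor), Ankrd49, Adprhl1, 1700007B14Rik, 2310002L09Rik, Xirp1, Pnmal1 and Csrp3. Of these, Xirp1 and Csrp3 stood on the muscle lists. E230019M04Rik lay at 11.13 (PBS) and 13.15 (MCSE) in muscle, 9.46 and 9.15 on the liver arrays and 10.65 and 8.93 on the adipose arrays.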

How the data were processed

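The authors deposited 1 table of linear, normalized intensities for 29922 probes on 6 one-colour (Cy5) arrays. Per the submitters' processing notes limma was used, with neither its version nor its step named. How background was corrected, how arrays were normalized and which build was used are not given in the sources used here. All 6 deposited columns of intensities shared 1 distribution, since sorted values differed from their median by at most 0.038 on the log2 scale, and this holds the overall level of every array equal. The platform annotation named 21020 probes and left 8902 unnamed. No detection calls were used.

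Intensities under 214.25, the 5th percentile, were set to that value before log2. A gene on a list was represented by its brightest probe, matched by symbol or by a RefSeq synonym, with 2-fold as the threshold for a call. MCSE minus PBS has no test, since each group is 1 array, and precision is limited by that number. Muscle and liver labels were compared in R 4.3.3 with limma 3.58.1 (lmFit and eBayes, 4 arrays, 2 residual degrees of freedom, Benjamini-Hochberg adjustment) on named probes with a mean at or above the median of all probes. The labels do not say that the arrays came from separate mice, and the spread within a label holds any effect of MCSE. The fit was tested on simulated data. Alternatives are given with the closing observations.

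Named were all probes of the 7 genes, the fast and cardiac counterparts, of each other list up to 4 genes past 2-fold, and the 10 genes of most similar profile. The choice of Casq2, Mb in muscle, Ppargc1a, Ttn, Alas2 and second or further probes followed a look at their values. The genes and lists were chosen with earlier results of these data known. Python 3.11.15, numpy 2.4.6, pandas 2.3.3, statsmodels 0.14.6 and matplotlib 3.10.9 were used.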

Additional observations from a re-analysis of the deposited data

Results flagged for a closer look

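For 3 of the 7 genes the difference between MCSE and PBS ran in opposite directions in muscle and on the liver labels, and was larger in both than the technical SD per probe, which holds no variation between mice. The gap between the 2 differences was 4.10 for Myl3 (1.21 in muscle and -2.89 on the liver labels), 2.35 for Tnnc1 (0.85 and -1.50) and 2.08 for Myl2 (0.62 and -1.47). With 1 array per group these gaps were not tested, and the genes were chosen on the same differences.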

How the results depend on the processing

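Quantile normalization and centring could hardly move a value here, because the deposited columns already shared 1 distribution. The median differences of the 7 genes moved by less than the SD per probe under these, under no floor, 32 added before log2 and removal of a trend with brightness, at 2.57 to 2.68 in muscle. The widest move was on the adipose labels, from -1.76 to -0.71 without the trend with brightness, where Tnnc1 went from -1.76 to -0.19. Under these settings no single slow probe changed direction where it was past 2-fold. The count of 5 probes higher in muscle became 7 at 1.5-fold and 4 at 3-fold, and that of 3 lower on the liver labels became 1 at 3-fold. At 1.5-fold, 1181 of all measured named probes were higher and 1023 lower in muscle, and 2628 and 2398 on the liver labels. At 3-fold these were 149 and 65, and 296 and 114. With only probes in the upper quartile kept, 711 were higher on the liver labels. Taking the floor and median without the adipose arrays, an alternative chosen after seeing the data, left the 5 and the 3 as they were. Between muscle and liver labels, the fit of all 6 arrays called 0 slow probes, 54 probes higher and 0 lower in muscle (527 lower at an unadjusted p under 0.05 with limma). The fit of the 4 muscle and liver arrays called 1 slow probe (Myl2) and 804 probes higher without a filter on dim probes. With treatment as a term it called 6 slow probes. Leaving out each of the 4 arrays gave 2 to 6 slow probes, 606 to 1728 higher and 880 to 2275 lower. A left-out array leaves a label with 1 sample, assumed to vary like the other label. No paired analysis was possible because replicate numbers link no arrays when each group has 1. The term for treatment is the nearest to a pairing.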

Other observations

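Of the 10 genes with a profile most like the slow genes, 4 had a probe numbered within 100 of the Myl2 probe on the platform (Htr7, 1700007B14Rik, E230019M04Rik and Ankrd49). Of the 78 named and measured probes in that stretch, Myl2 left out, 10 were at least 2-fold higher with MCSE in muscle (12.8%, against 3.92% of all). The stretch was chosen after these values were seen, and how probe numbers relate to places on the slide was not given in the sources used here.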
